A study of Rattus norvegicus with 14 samples.

Results

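The genes described here encode the calcium sensors and shut-off proteins of phototransduction. They are 10 of the 16472 genes measured and were chosen by symbol: Rcvrn, Guca1a, Guca1b, Gucy2f, Grk1, Rgs9, Rgs9bp, Pdc, Slc24a1 and Slc24a2. All 10 were found in the table, each as 1 transcript. Messenger RNA was measured in FPKM, a unit that scales the sequenced fragments of a transcript by its length and by the size of the library, in 14 libraries of Sprague-Dawley rats aged 6 to 8 weeks. Lights were on for 14 h and off for 10 h a day, and zeitgeber time (ZT) counts hours from lights on. Pineal glands and, separately, retinas were pooled from 10 animals at each of ZT1, ZT7, ZT13, ZT15, ZT19 and ZT23. Mixed tissue, taken from 3 animals at ZT7 and at ZT19, combined equal amounts of RNA from 15 tissues, with retina (6.67% of that RNA) and without pineal gland. The labels name no genetic change and no drug for any group, and the stated purpose was a search for cycling transcripts, with the mixed pools there to find those that the pineal gland favours.

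In a photoreceptor, light closes the cyclic GMP-gated channels while an exchanger keeps pumping calcium out, so that internal calcium falls. Recoverin and the guanylate cyclase activating proteins read that fall: recoverin then releases the receptor kinase GRK1, and the activators switch on the cyclase that makes cyclic GMP again. A separate complex around RGS9 speeds the hydrolysis of GTP on transducin, which ends the signal. The mammalian pineal gland derives from the same lineage of photosensitive cells and keeps part of this gene set, although in adult mammals it receives light information through nerves from the eye.

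The promoters of 4 of these genes are shown, each for a reason given next. Pdc and Guca1a had the largest pineal changes over the day that passed the test, Guca1b lies beside Guca1a, and Gucy2f was the member with the lowest pineal level. RefSeq promoters of the GRCr8 assembly, from 250 bases before to 50 bases after the gene start, were at hand for 8 of the 10 genes. Those shown lie at chr13:64908057-64908356 on the plus strand (Pdc), chr9:21086392-21086691 on the plus strand (Guca1a), chr9:21105058-21105357 on the minus strand (Guca1b) and chrX:110604968-110605267 on the minus strand (Gucy2f). Capitals mark each match, on either strand, to TAATCC, a binding motif of the photoreceptor and pineal homeobox factor CRX.
Pdc: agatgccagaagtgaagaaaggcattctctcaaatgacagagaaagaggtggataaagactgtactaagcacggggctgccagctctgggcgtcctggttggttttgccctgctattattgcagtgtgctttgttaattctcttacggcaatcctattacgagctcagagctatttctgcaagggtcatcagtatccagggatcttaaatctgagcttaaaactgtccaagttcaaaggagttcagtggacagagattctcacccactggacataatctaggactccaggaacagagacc
Guca1a: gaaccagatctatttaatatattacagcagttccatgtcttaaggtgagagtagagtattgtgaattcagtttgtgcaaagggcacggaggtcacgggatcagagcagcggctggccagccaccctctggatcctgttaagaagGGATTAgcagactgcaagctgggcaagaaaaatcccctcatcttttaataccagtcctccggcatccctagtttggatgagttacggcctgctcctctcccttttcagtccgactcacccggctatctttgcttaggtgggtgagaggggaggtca
Guca1b: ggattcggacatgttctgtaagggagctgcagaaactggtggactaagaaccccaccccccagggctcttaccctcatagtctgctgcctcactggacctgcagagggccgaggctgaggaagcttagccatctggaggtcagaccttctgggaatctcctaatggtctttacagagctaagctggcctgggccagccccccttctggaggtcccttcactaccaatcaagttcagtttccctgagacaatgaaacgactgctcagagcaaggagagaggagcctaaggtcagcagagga
Gucy2f: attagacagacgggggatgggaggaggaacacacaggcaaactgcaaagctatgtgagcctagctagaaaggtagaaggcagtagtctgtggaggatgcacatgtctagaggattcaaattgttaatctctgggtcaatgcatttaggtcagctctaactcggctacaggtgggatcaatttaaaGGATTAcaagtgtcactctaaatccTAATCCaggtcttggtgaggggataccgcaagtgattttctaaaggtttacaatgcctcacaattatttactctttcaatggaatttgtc
TAATCC was present in 2 of the 8 promoters, against 7.17% of 33469 RefSeq promoters of the same length. The Guca1a window held it once, on the opposite strand and 106 bases before the start, and the Gucy2f window held it at 40 bases (same strand) and 65 bases (opposite strand) before the start. The E-box CACGTG, bound by clock factors, occurs in 6.42% of all promoters, and TGACG, the core of cyclic AMP response elements, in 21.2%. Neither set of letters was in any of the 8 windows.

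The tissues matched their labels: the summed level of 9 pinealocyte markers was 4685 to 5501 FPKM in pineal glands and 342 to 405 FPKM in retinas. Tph1 alone held 2968 to 3848 FPKM of the pineal sum. Crx overlapped between the tissues, with 160 to 275 FPKM in pineal glands and 208 to 270 in retinas. Otx2 did too, with 110 to 212 FPKM in pineal glands and 112 to 122 in retinas. Of the 7 rod markers with a value, Gnat1, Nrl, Pde6a and Pde6b were near 0 in pineal glands, where Gnat1 (rod transducin) lay between 0.944 and 1.60 FPKM, against 2294 to 3753 FPKM in retinas. Nrl (the rod fate factor) lay between 0 and 0.208 FPKM in pineal glands, against 115 to 162 FPKM in retinas. The others were present in pineal glands: Cnga1 at 4.81 to 16.8 FPKM, Rom1 at 188 to 443 and Prph2 at 253 to 398 (both encode disc rim proteins), so that the rod marker sum there was 449 to 808 FPKM. The retina ZT7 library stood above the others in the summed level of the 7 rod markers with a value (7407 FPKM, against 5818 to 7154 in the other retinas) and in total FPKM. The choroid plexus markers peaked in the pineal ZT15 library (3605 FPKM, against 672 to 1162 in the other pineal libraries, nearly all of it Ttr), and the lens markers in the retina ZT19 library (1015 FPKM, the others 65.8 to 432). Relative depth, estimated from the smallest values, was lowest in pineal ZT19 (0.411 of the deepest library). Each tissue and time had 1 library, so a value at 1 time has no error of its own.

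Together the 10 genes held 0.263% to 0.558% of all FPKM in pineal libraries, 1.62% to 1.80% in retina libraries and 0.151% to 0.173% in mixed tissue. In the pineal gland Pdc and Guca1b stood highest, with means of 246 and 244 FPKM, and their ranges overlapped. Grk1 (88.5), Guca1a (65.5), Rgs9 (55.2) and Slc24a1 (42.7) followed, each overlapping the next in the order. Slc24a2 (17.01), Rgs9bp (3.52), Rcvrn (1.14) and Gucy2f (0 to 0.0969) came last, and of these only Rgs9bp and Rcvrn overlapped. The retina had another order, with Pdc (987 FPKM), Rcvrn (680.3), Guca1b (436) and Slc24a1 (229) at the top and Slc24a2 (6.05) at the bottom. Recoverin was thus the second most abundant of these transcripts in the retina and the next to last in the pineal gland.

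**Figure D1:**
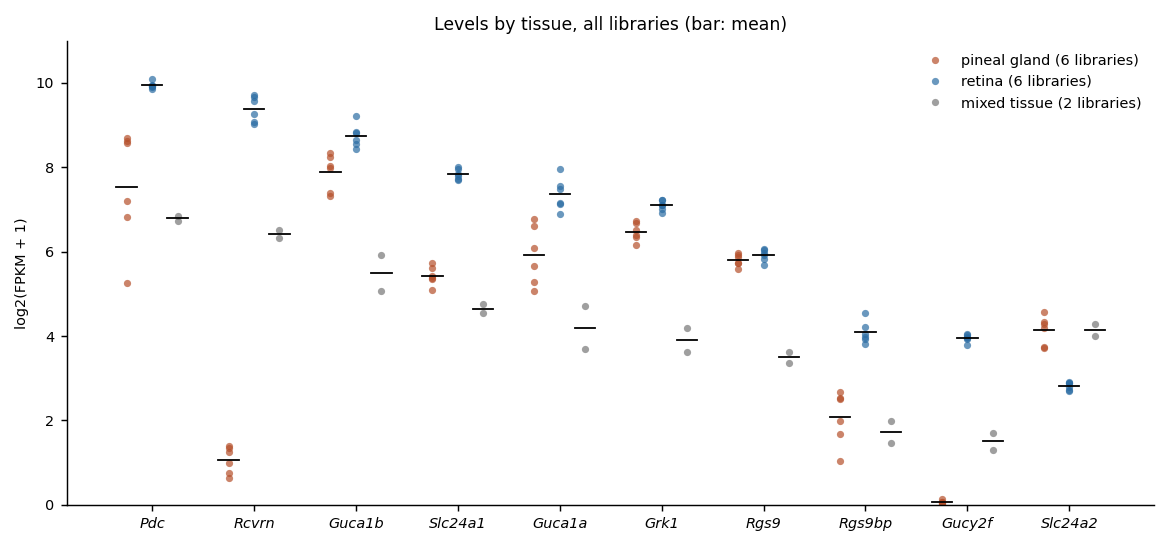
Levels of the 10 genes as log2(FPKM + 1) in pineal glands, retinas and mixed tissue, 1 point per library and a bar at the mean. Rcvrn and Gucy2f lie near 0 in the pineal gland, Rgs9 lies at nearly the same height in pineal gland and retina, and Slc24a2 is the single gene whose pineal points all lie above its retina points.

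The first question was how pineal glands differ from retinas, over the 6 libraries of each. Gucy2f had no pineal library at 1 FPKM and entered limma's test on log2(FPKM + 1) only through tissues where it is higher, so its difference is a description and is left out of these counts. Of the other 9 genes 8 differed, where 68.9% of all 11656 genes tested did: 7 were lower in the pineal gland, against 32% of all genes, and 1 was higher, against 36.9%. The median difference of these 9 genes was -1.45, and that of all genes tested 0.03. The shares and the median over all genes keep the genes that entered through other tissues only, so their filter is wider. In bulk tissue, fewer cells of a type and less RNA per cell cannot be told apart.

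The calcium sensors fell into separate classes by how much of the retina level the pineal gland kept. Rcvrn encodes recoverin, the calcium-bound inhibitor of that kinase (rn4 chromosome 10, 54409087 to 54416833). Its level was 0.696, 1.64, 1.40, 1.54, 0.555 and 0.992 FPKM in pineal glands from ZT1 to ZT23, against 835, 816, 539, 517, 617 and 758 FPKM in retinas. The pineal mean was 0.167% of the retina mean, and the fitted difference was -8.32 ± 0.16 (standard error, adjusted p = 2.50e-15). The kinase that recoverin inhibits was well above that level: Grk1 (chromosome 16, 80979323 to 80991796), measured 105, 91.0, 81.1, 83.4, 69.9 and 101 FPKM in pineal glands. In retinas Grk1 measured 136, 149, 149, 136, 127 and 120.1 FPKM. The groups did not overlap, and the difference of -0.63 ± 0.12 passed the test (adjusted p = 0.000208).

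Guca1a and Guca1b encode GCAP1 and GCAP2, the activators that switch on guanylate cyclase when calcium is low. The genes are neighbours on rn4 chromosome 9 (9046617 to 9056984 and 9058038 to 9065831), 1053 bases apart, and by the GRCr8 strands their ends face each other. Guca1a stood at 38.1, 66.7, 96.7, 109, 49.7 and 32.8 FPKM in pineal glands, against 139, 247, 187, 179.6, 142 and 119 FPKM in retinas. Every retina library lay above every pineal library (-1.45 ± 0.29, adjusted p = 0.000455). Guca1b stood at 253, 321, 262, 303, 159 and 166 FPKM in pineal glands, against 459.6, 594, 446, 397, 343 and 375 FPKM in retinas. This was a smaller gap (-0.86 ± 0.21, adjusted p = 0.00179), and with the ZT7 and ZT19 libraries alone it did not pass (adjusted p = 0.12). Gucy2f encodes guanylate cyclase 2F, an enzyme these activators act on (chromosome X, 36367528 to 36469112). It was listed at 0 to 0.0969 FPKM in pineal glands, against 14.8, 14.3, 14.5, 15.2, 12.8 and 15.5 FPKM in retinas. The pineal values rest on few fragments, since 1 fragment in a transcript of 1 kb was worth about 0.0339 to 0.0524 FPKM there. Every retina library lay above every pineal library. The other retinal cyclase, Gucy2e, was present in the pineal gland at 16.7 ± 5.35 FPKM, against 47.5 ± 15.0 FPKM in retinas (SD, n = 6 each), a difference of -1.47 ± 0.28 (adjusted p = 0.00027).

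The members of the RGS9 complex did not keep step. Rgs9 encodes the GTPase-activating protein that turns transducin off (chromosome 10, 98598326 to 98652880). It measured 62.1, 57.2, 47.4, 52.2, 52.3 and 59.9 FPKM in pineal glands, against 65.3, 61.7, 50.7, 55.8, 59.4 and 64.6 FPKM in retinas, and these ranges overlapped. Its difference was -0.11 ± 0.09 (adjusted p = 0.277), and it passed under quantile normalization (-0.48, adjusted p = 1.78e-05) and under median ratio scaling (-0.22, adjusted p = 0.0473). Rgs9bp encodes R9AP, which anchors RGS9 to the disc membrane and stabilises it (chromosome 1, 88115883 to 88116596). It stood at 4.79, 5.40, 2.98, 4.71, 1.047 and 2.22 FPKM in pineal glands and at 13.1, 15.6, 14.1, 17.7, 22.4 and 14.7 FPKM in retinas (-2.02 ± 0.24, adjusted p = 2.87e-06). The ratio of Rgs9 to Rgs9bp was therefore 10.6 to 49.96 in pineal libraries, against 2.65 to 4.99 in retina libraries. The highest of these ratios came from the pineal ZT19 library, which had the lowest depth of all. Gnb5, the beta subunit bound to RGS9, was at 16.0 ± 3.12 FPKM in pineal glands, against 111 ± 16.3 FPKM in retinas (-2.72 ± 0.13, adjusted p = 7.50e-11).

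Pdc encodes phosducin, which binds the beta-gamma subunits of transducin and keeps them from the alpha subunit (chromosome 13, 64622473 to 64636031). It reached 147, 378, 411, 393, 112 and 37.2 FPKM in pineal glands, against 968, 1098, 989, 975, 929 and 964 FPKM in retinas. The spread of the pineal values was 11.04-fold, that of the retina values 1.18-fold, and no pineal value reached a retina value (-2.42 ± 0.47, adjusted p = 0.000309).

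The exchangers differed in opposite directions. Slc24a1 encodes NCKX1, the sodium, potassium and calcium exchanger of rod outer segments (chromosome 8, 69175549 to 69208429), and Slc24a2 encodes NCKX2, the form of cones and of brain neurons (chromosome 5, 106295254 to 106537714). Slc24a1 stood at 48.0, 32.9, 40.8, 42.2, 40.0 and 52.0 FPKM in pineal glands, against 258, 229, 208, 209, 219 and 248 FPKM in retinas (-2.40 ± 0.10, adjusted p = 1.45e-11). Slc24a2 stood at 17.3, 22.7, 19, 18.4, 12.4 and 12.2 FPKM in pineal glands, against 6.35, 5.61, 5.89, 5.49, 6.43 and 6.53 FPKM in retinas (1.32 ± 0.13, adjusted p = 2.86e-07). The Slc24a1 to Slc24a2 ratio was 1.45 to 4.25 in pineal libraries, against 34.1 to 40.8 in retina libraries. Slc24a2 was the only one of the 10 genes higher in the pineal gland, and it remained so under each alternative tried.

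Beside the rest of the cascade, the calcium sensors and shut-off genes lay, by their median difference of -1.45, between its rod and cone arms. Pde6b, Opn1mw, Pde6h and Hpcal4 entered the test only through other tissues, as Gucy2f did, and are left out of the counts that follow. These counts stand beside shares of 36.9% higher and 32% lower over all genes, which keep such genes. All 7 rod genes were lower in the pineal gland, with a median of -3.70: Gnat1 reached 0.0448% of its retina level and Sag (rod arrestin) 9.86%. Of 6 cone genes, 5 were higher and 1 lower, with a median of 3.76, and Gnat2 (cone transducin), Gnb3 and Gngt2 (its partners) and Pde6c (the cone phosphodiesterase) had 13.4, 14.3, 31.2 and 23.2 times the retina level. The cone genes left out, Opn1mw and Pde6h, stood at 0.216% and 2.92% of their retina level, and the rod gene left out, Pde6b, at 0.097%. The medians of 3.76 and -3.70 thus cover only genes that passed the filter within the pineal gland. Among 15 partners and paralogs 4 were higher and 9 lower. Of 7 other neuronal calcium sensors and calmodulins 1 was higher (Ncald, neurocalcin delta, with 54.9 ± 35.5 FPKM in pineal glands, against 15.3 ± 1.00 in retinas) and 4 were lower.

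**Figure D2:**
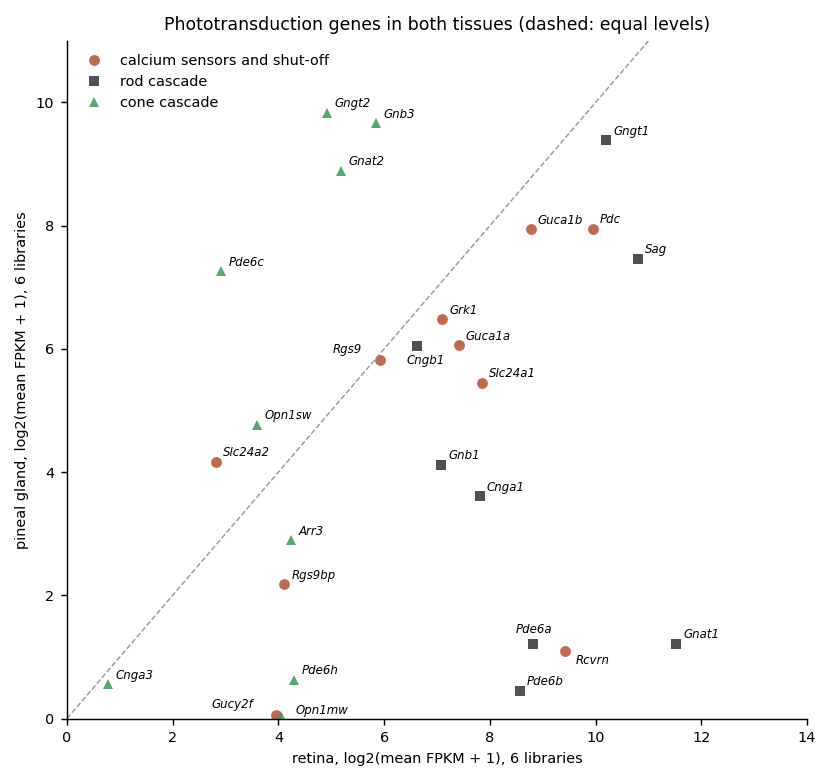
Mean pineal level against mean retina level, both as log2(mean FPKM + 1) over 6 libraries, for the calcium sensor and shut-off genes (circles) and for the rod (squares) and cone (triangles) cascade. Points below the dashed line are lower in the pineal gland: 5 cone genes and Slc24a2 lie above it, Rgs9 almost on it, and Rcvrn near the rod genes Pde6a and Pde6b.

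Set against mixed tissue, 6 of the same 9 genes differed in the pineal gland, where 64.8% of all genes did. This fit set libraries of all 6 times against mixed pools of ZT7 and ZT19 only, so times were not matched. As before, the shares over all genes keep those that entered through other tissues only. In the mixed pools of ZT7 and ZT19, Pdc stood at 115 and 105 FPKM, Guca1b at 60.0 and 32.6, and Grk1 at 17.4 and 11.2. Rgs9 stood there at 11.3 and 9.27 FPKM, and Rcvrn at 89.7 and 79.0. Pineal Pdc at these 2 times was 378 and 112 FPKM. Grk1 (2.56 ± 0.16), Guca1b (2.39 ± 0.29), Rgs9 (2.31 ± 0.12), Guca1a (1.72 ± 0.42) and Slc24a1 (0.78 ± 0.15) were higher, with adjusted p between 1.26e-10 and 0.00203; 19.8% of all genes were. Rcvrn (-5.35 ± 0.22, adjusted p = 7.06e-12) was lower in the pineal gland, as were 45% of all genes. Pdc (0.73, adjusted p = 0.354), Rgs9bp (0.35, adjusted p = 0.397) and Slc24a2 (-0.0025, adjusted p = 0.992) did not pass, while Pdc passed without the pineal ZT23 library (1.19, adjusted p = 0.0241) and Rgs9bp passed under quantile normalization (1.42, adjusted p = 0.000646). The Guca1a call rested on the mixed ZT19 library (1.197, adjusted p = 0.0693 without it). The retina differed from mixed tissue in all 10 genes (65% of all genes), being higher in 9 (18.4% of all genes) and lower in Slc24a2 (46.6%). At matched times the mixed level of these 9 genes was 7.87% to 18.9% of the retina level, whereas Slc24a2 in mixed tissue was at 330.2% of the retina level at ZT7 and at 232% at ZT19. Quantile normalization moved the median of all genes by 0.47 and 0.49 in the comparisons of pineal gland and of retina with mixed tissue.

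The second question was which of these transcripts followed a 24-h rhythm. In the pineal gland 5 of the 10 passed the moderated F test of a 24-h cosine, against 20.7% of 10416 genes tested. All 5 had fitted peaks in the light, as had 1472 of the 2160 genes that passed. Over all genes 14.1% passed with a peak in the light and 6.61% with one in the dark. Gucy2f, which entered through the retina alone, stays in the counts of 10 genes over time, and the shares over all genes keep such genes too. The median fitted peak to trough of the 10 genes was 0.81 on the log2 scale, and that of all genes 0.39. The genes were Pdc, Guca1a, Guca1b, Slc24a2 and Rcvrn, and each stood lower at ZT19 and at ZT23 than at ZT7. Since the fit that picked them used these same values, this is a description and not a separate result.

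**Figure D3:**
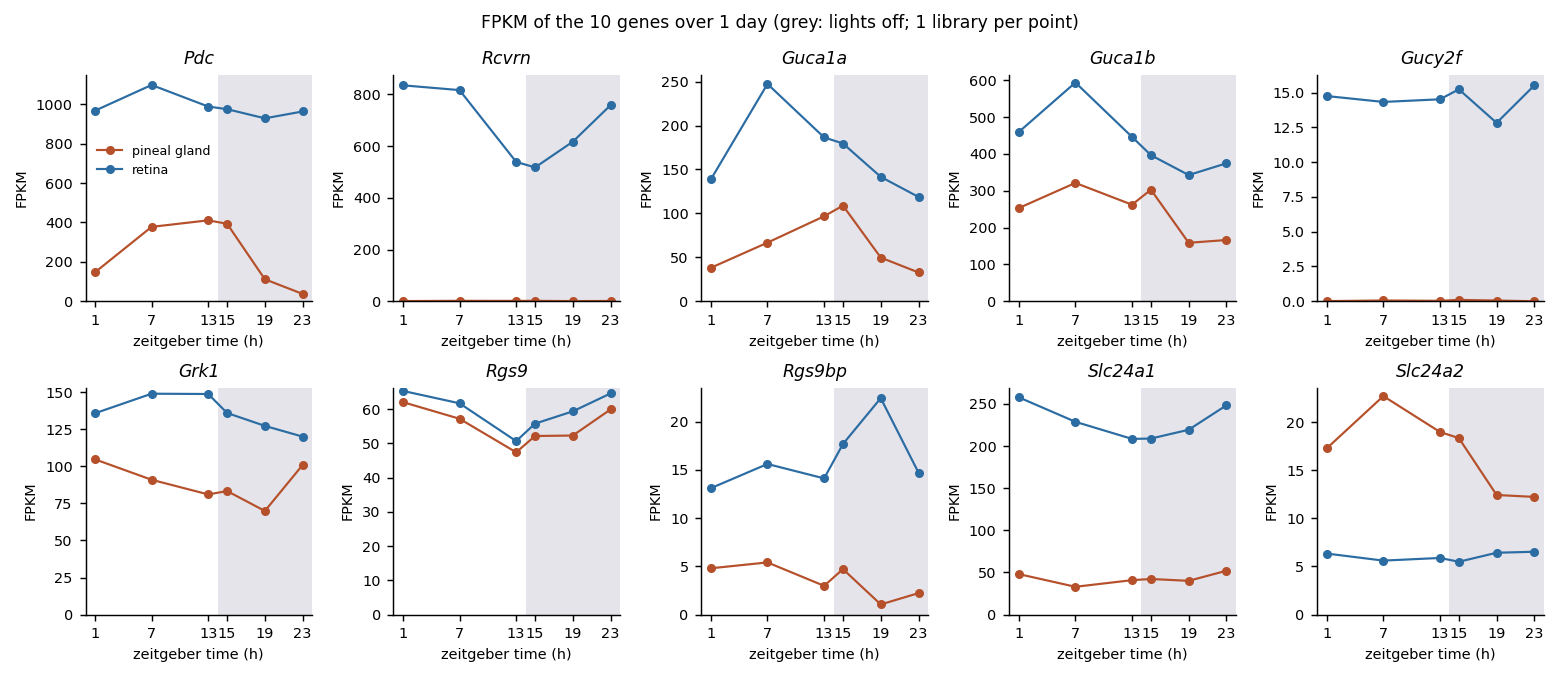
FPKM of each gene by zeitgeber time in pineal glands and retinas, 1 library per point, on axes that start at 0 and differ between panels, with the dark hours in grey. Pdc in the pineal gland reaches 411 FPKM at ZT13 and 37.2 FPKM at ZT23 while its retina values stay between 929 and 1098, and Guca1b and Slc24a2 in the pineal gland are also lower at ZT19 and ZT23 than at the 3 times in the light.

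Pdc had the widest pineal rhythm, 3.21 ± 0.46 from fitted peak to trough with the peak at ZT10.4 (adjusted p = 0.00292). Guca1a followed with 1.64 ± 0.16 and a peak at ZT12.2 (adjusted p = 0.000438). Both passed under each of the 19 alternatives tried, with adjusted p of at most 0.0371 and 0.0102. Guca1b had a smaller rhythm with an earlier peak (1.03 ± 0.23 at ZT8.74, adjusted p = 0.0255), and it did not pass without the pineal ZT19 (adjusted p = 0.0719) or ZT23 library (adjusted p = 0.0986), with no filter (0.0613) or with the pineal libraries fitted alone (0.114). Slc24a2 peaked at ZT8.52 (0.89 ± 0.15, adjusted p = 0.00711) and lost its call only when the pineal libraries were fitted alone (adjusted p = 0.06). Rcvrn, at a level where the pseudocount is as large as the value, gave 0.73 ± 0.17 with a peak at ZT9.61 (adjusted p = 0.0288). It missed without pineal ZT7 or ZT13 or without retina ZT15 or ZT23 (adjusted p 0.0504 to 0.0702), and also with no filter (0.0505), quantile normalization (0.53, adjusted p = 0.0889) or the pineal libraries fitted alone (0.192).

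The kinase, the RGS9 pair and the rod exchanger did not pass in the pineal gland. Rgs9bp had a fitted peak to trough of 1.39 ± 0.43 (adjusted p = 0.0898), which passed without the pineal ZT15 library (1.76, adjusted p = 0.0102). Grk1 had 0.44 (adjusted p = 0.101), Rgs9 0.33 (adjusted p = 0.0674), Slc24a1 0.45 (adjusted p = 0.12) and Gucy2f, close to its floor, 0.08 (adjusted p = 0.877). Grk1 passed without pineal ZT7 or ZT19 (adjusted p = 0.0411 and 0.0483), and Slc24a1 without pineal ZT19 (0.72, adjusted p = 0.0096). Under median ratio scaling Grk1 (0.46, adjusted p = 0.0305), Rgs9 (0.41, adjusted p = 0.0152) and Slc24a1 (0.61, adjusted p = 0.0197) all passed. The fitted peaks of Grk1, Rgs9 and Slc24a1 lay at ZT3.52, ZT2.03 and ZT21.5. As these rhythms did not pass, their peaks are a description, and whether they differ from those of the 5 genes that passed was not tested.

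In the retina 0 of the 10 genes passed in limma's test, where 1.02% of all genes did (0.701% with a peak in the light and 0.317% with one in the dark), and 2251 genes, Guca1a, Guca1b, Rcvrn and Rgs9 among them, had an unadjusted p under 0.05. Their medians were alike, 0.31 for the 10 genes and 0.31 for all genes. Guca1a came closest (0.99 ± 0.19, peak at ZT9.20, adjusted p = 0.0592), then Rcvrn (0.76 ± 0.16, peak at ZT3.26, adjusted p = 0.0765). Guca1a passed without pineal ZT15 or ZT19 (adjusted p = 0.0322 and 0.0398), and Rcvrn without pineal ZT19 (adjusted p = 0.0316), since both tissues share the estimate of spread. Under quantile normalization Guca1a passed (1.09, adjusted p = 0.0144), and with the retina fitted alone Guca1a, Guca1b and Rcvrn did (adjusted p = 0.0195, 0.0244 and 0.0248).

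The difference between the tissues' rhythms was tested itself. It passed for 4 of the 10 genes, where 4.95% of all genes passed: Pdc (peak to trough of the difference 3.05 ± 0.64, adjusted p = 0.0464), Guca1a (1.17 ± 0.24, adjusted p = 0.041), Rcvrn (1.10 ± 0.21, adjusted p = 0.0338) and Slc24a2 (1.08 ± 0.21, adjusted p = 0.0336). These are calls close to the threshold, and each was lost when any 1 of the 6 retina libraries was left out, or any 1 of 2 or 3 pineal libraries. The pineal libraries concerned were ZT13 and ZT15 for Pdc, ZT13, ZT15 and ZT23 for Guca1a, ZT1, ZT13 and ZT15 for Rcvrn, and ZT13 and ZT23 for Slc24a2. With 1 library left out, adjusted p of the lost calls ran from 0.0502 to 0.155. With no filter 0 of the 4 passed (adjusted p 0.0539 to 0.104), and with a pseudocount of 0.1 Pdc and Rcvrn did not (0.0511 and 0.0736). Under quantile normalization Rcvrn did not pass (0.84, adjusted p = 0.0867). With zeitgeber time as a block, an alternative chosen after the data were seen, 0 passed (adjusted p 0.0554 to 0.089 for these 4). Rgs9bp (1.82, adjusted p = 0.201) passed without pineal ZT15 (2.23, adjusted p = 0.0338). For Guca1b, whose highest values came at ZT7 in both tissues, the difference was 0.45 ± 0.28 (adjusted p = 0.547).

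**Figure D4:**
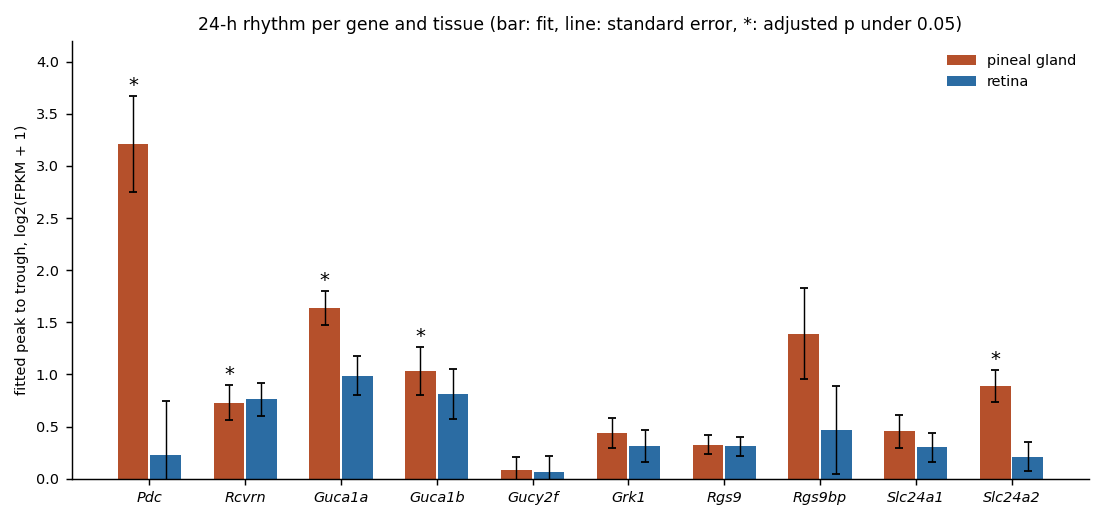
Fitted 24-h peak to trough on the log2(FPKM + 1) scale per gene in pineal glands and retinas; bars are the fit, lines its standard error, and a star marks an adjusted p under 0.05. The stars stand over Pdc, Rcvrn, Guca1a, Guca1b and Slc24a2 in the pineal gland, and no retina bar has one.

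Late dark (ZT19 and ZT23) against light (ZT1, ZT7 and ZT13) gave 4 of 10 genes in the pineal gland, against 7.28% of all genes. All 4 were lower in late dark, as were 441 of the 758 genes that passed (4.23% of all genes, with 3.04% higher). The median of all genes in this contrast was -0.12, and that of the 10 genes -0.47. Pdc averaged 74.4 ± 52.5 FPKM in late dark (SD, n = 2) and 312 ± 144 FPKM in light (SD, n = 3), a fitted difference of -2.12 ± 0.47 (adjusted p = 0.0234). Rgs9bp averaged 1.63 ± 0.829 FPKM in late dark and 4.39 ± 1.26 FPKM in light (-1.04 ± 0.25, adjusted p = 0.0301). Guca1b averaged 163 ± 5.35 FPKM in late dark and 279 ± 37.1 FPKM in light (-0.77 ± 0.18, adjusted p = 0.0316), and Slc24a2 12.3 ± 0.141 FPKM in late dark and 19.7 ± 2.78 FPKM in light (-0.62 ± 0.12, adjusted p = 0.0149). In each of these 4 genes the late dark values lay below all light values, a description of the values that the test used. The share of all genes with such a separation was not computed. In the retina, where none of the 10 genes passed, 4 were separated in this way, 3 lower and 1 higher in late dark. The calls were lost without pineal ZT7 for all 4 (none of the 10 genes passed then), without ZT13 for Pdc and Guca1b, without ZT19 for Guca1b, Rgs9bp and Slc24a2, and without ZT23 for Pdc (-1.34), Guca1b and Slc24a2. Retina libraries that ended a call when left out were ZT13 for Rgs9bp and ZT19 and ZT23 for Guca1b. The adjusted p of these lost calls ran from 0.0515 to 0.225, and Guca1a passed without pineal ZT1 (-0.98, adjusted p = 0.0422). With the pineal libraries fitted alone none of the 4 passed (adjusted p 0.0779 to 0.11), with no filter Slc24a2 alone did, and under quantile normalization Rgs9bp did not (adjusted p = 0.0703). The part of the low depth at ZT19 in the result was not tested.

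In the retina late dark against light gave 0 of the 10 genes in limma's test, against 0.0096% of all genes, and 1238 genes, Guca1b alone among these 10, had an unadjusted p under 0.05. Guca1b averaged 359 ± 22.6 FPKM in late dark and 499.9 ± 81.7 FPKM in light (-0.47 ± 0.18, adjusted p = 0.36). Rgs9bp, lower in late dark in the pineal gland, averaged 18.6 ± 5.46 FPKM in late dark and 14.3 ± 1.26 FPKM in light in the retina (0.33 ± 0.25, adjusted p = 0.599). Its highest retina value, 22.4 FPKM, came from ZT19, the library with the most lens marker RNA, whose part in this value was not tested.

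Dusk (ZT13 and ZT15) against dawn (ZT23 and ZT1) compares times on either side of the light and dark switches. It was chosen because earlier results had shown fitted peaks of some phototransduction genes late in the light. Its counts are therefore a description and not an independent test. In the pineal gland 4 of the 10 genes differed (17.1% of all genes), of which 3 were higher at dusk (10.8% of all genes) and 1 lower (6.29%). Guca1a averaged 103 ± 8.57 FPKM at dusk and 35.4 ± 3.74 FPKM at dawn (SD, n = 2 each), a difference of 1.51 ± 0.11 (adjusted p = 0.000139) that passed under every alternative tried. Pdc averaged 402 ± 12.4 FPKM at dusk and 92.0 ± 77.5 FPKM at dawn (2.42 ± 0.49, adjusted p = 0.0129). Pdc missed with no filter (adjusted p = 0.058) and with the pineal libraries fitted alone (0.0548). Its dawn values of 147 FPKM at ZT1 and 37.2 FPKM at ZT23 differed widely: without ZT1 the difference was 3.40, without ZT23 it was 1.45, and without ZT13 or ZT15 it did not pass (adjusted p = 0.0677 and 0.0606). The pineal ZT15 library, 1 of the 2 at dusk, was the one with the most choroid plexus marker RNA, whose part in these values was not tested. Without pineal ZT1, 3 more genes passed, Guca1b (0.76, adjusted p = 0.0151), Slc24a2 (0.57, adjusted p = 0.00708) and Slc24a1 (-0.32, adjusted p = 0.0409).

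Rcvrn was also higher at dusk in the pineal gland, with 1.47 ± 0.103 FPKM at dusk and 0.844 ± 0.209 FPKM at dawn (0.43 ± 0.10, adjusted p = 0.0241), and it was lower at dusk in the retina, with 528 ± 15.1 FPKM at dusk and 796 ± 54.2 FPKM at dawn (-0.59 ± 0.10, adjusted p = 0.0403). It was the only one of the 10 genes that passed in the retina, where 0.96% of all genes did (0.403% higher, 0.557% lower). Guca1a passed there under quantile normalization (0.71, adjusted p = 0.0175) and with the retina fitted alone (0.0292). Grk1 was lower at dusk in the pineal gland, with 82.2 ± 1.61 FPKM at dusk and 103 ± 2.69 FPKM at dawn (-0.32 ± 0.09, adjusted p = 0.0486). Rgs9 (-0.29, adjusted p = 0.053) and Slc24a1 (-0.26, adjusted p = 0.0577) had differences of nearly the same size in the pineal gland and did not pass. Both passed under median ratio scaling (-0.38, adjusted p = 0.0192, and -0.35, adjusted p = 0.0264) and with a mean of at least 5 FPKM as the filter (adjusted p = 0.0459 and 0.0474). In the retina these were -0.28 for both (adjusted p = 0.207 and 0.189). The Rcvrn call in the pineal gland was lost without pineal ZT1, ZT13 or ZT15 or retina ZT13 or ZT15, and the one in the retina without pineal ZT13 or ZT15 or retina ZT1, ZT13, ZT15 or ZT23. The Grk1 call was lost without ZT1, ZT13, ZT15 or ZT23 of either tissue. Adjusted p of these lost calls ran from 0.0507 to 0.312. Quantile normalization ended all 3 calls (Grk1 -0.19, adjusted p = 0.199; Rcvrn 0.27, adjusted p = 0.122, in the pineal gland and -0.40, adjusted p = 0.115, in the retina). The Grk1 call was also lost with a pseudocount of 0.1, no filter, the highest transcript or the pineal libraries fitted alone (adjusted p 0.0503 to 0.0912), the pineal Rcvrn call with the last of these (0.169), and the retina Rcvrn call with a pseudocount of 0.1 (0.136) or no filter (0.104).

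Genes that act together stood in other proportions from library to library, most of all in the pineal gland. Guca1b over Guca1a was 6.65, 4.81, 2.71, 2.78, 3.19 and 5.08 in pineal glands from ZT1 to ZT23, and 3.31, 2.40, 2.39, 2.21, 2.42 and 3.15 in retinas. In both tissues the ratio was highest at ZT1 and ZT23, with the larger swing in the pineal gland. Pdc over Grk1 was 1.40, 4.15, 5.07, 4.72, 1.60 and 0.369 in pineal glands, against 6.64 to 8.03 in retinas. At ZT23, Grk1 thus exceeded Pdc in the pineal gland, the only time at which it did. Ratios over libraries are given as a description, without a test.

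**Figure D5:**
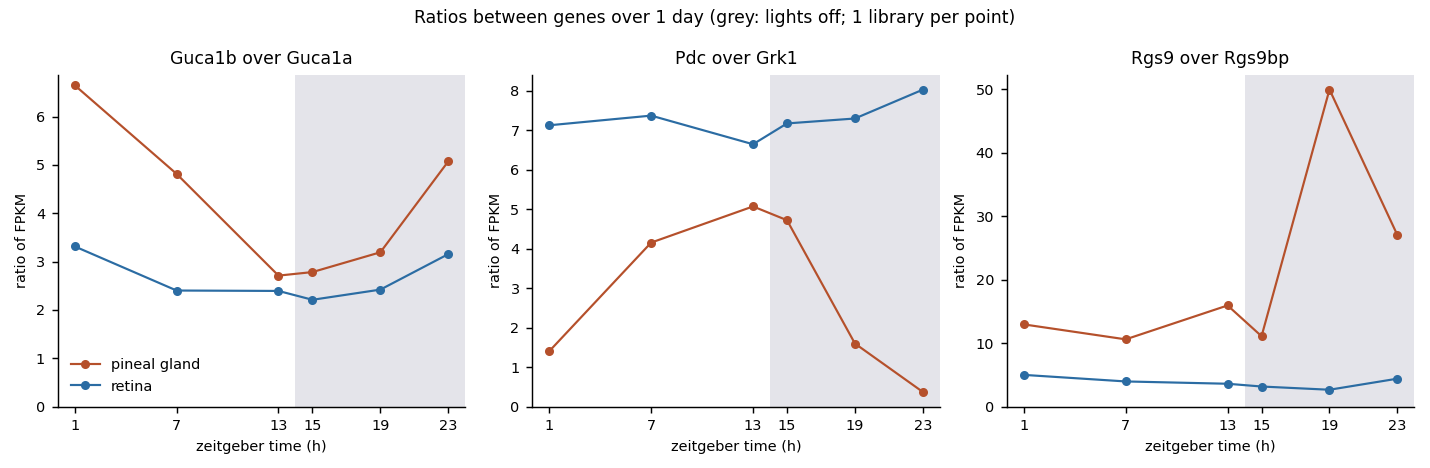
Ratios of FPKM between genes by zeitgeber time, 1 library per point, in pineal glands and retinas, with the dark hours in grey. Guca1b over Guca1a is lowest at ZT13 in the pineal gland (2.71), Pdc over Grk1 is highest there at ZT13 (5.07) and lowest at ZT23 (0.369), and Rgs9 over Rgs9bp is 49.96 at ZT19.

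Other genes of the pathway were read from 4 lists, whose counts stand beside the 20.7% of all genes rhythmic in the pineal gland. The shares for cone genes and for partners and paralogs are near it. Pde6b, Opn1mw, Pde6h and Hpcal4 entered through the retina alone and stay in these counts, without a call. The 20.7% keeps such genes too. In the pineal gland 4 of 8 rod genes were rhythmic: Sag (peak to trough 2.79 ± 0.15, peak at ZT13.0, adjusted p = 1.29e-05), Cnga1, a channel subunit (1.74 ± 0.25, ZT9.49, adjusted p = 0.00276), Gngt1 (1.00 ± 0.24, ZT14.1, adjusted p = 0.0377) and Gnb1 (0.92 ± 0.11, ZT13.6, adjusted p = 0.0013). Of 8 cone genes 2 passed, Opn1sw, the short-wavelength opsin (2.08 ± 0.26, ZT8.36, adjusted p = 0.00139), and Pde6c (0.80 ± 0.14, ZT15.6, adjusted p = 0.00896). Among 15 partners and paralogs 3 passed, and their peaks lay around lights on: Adrbk1, the broadly expressed relative of Grk1 (0.73 ± 0.11, ZT22.9, adjusted p = 0.00358), Rgs7, a relative of Rgs9 (0.88 ± 0.14, ZT1.83, adjusted p = 0.0047), and Gnb5 (0.66 ± 0.13, ZT2.70, adjusted p = 0.0139). Among 8 other calcium sensors and calmodulins 4 passed. Ncald peaked at ZT22.6 (2.46 ± 0.22, adjusted p = 0.000221), whereas Hpcal1 (1.65 ± 0.21, ZT9.47, adjusted p = 0.00167), Vsnl1 (0.78 ± 0.13, ZT11.8, adjusted p = 0.00744) and Hpca (0.78 ± 0.14, ZT6.66, adjusted p = 0.0114) peaked in the light. In the retina 0 of the genes in these 4 lists passed limma's rhythm test.

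Genes with time courses most like those of the members were sought among 742 genes of at least 5 FPKM on average and a range of at least 1 on the log2 scale over the 6 pineal libraries, for each member with such a range. For Pdc these were Hs3st2 (Pearson r of log2 values 0.991), Hspb1 (0.991) and Pid1 (0.991), for Guca1a Nap1l1 (0.993), Psip1 (0.990) and Idh1 (0.985). For Guca1b they were Phlpp2 (0.984), Cacnb2 (0.983) and Cfl2 (0.980), and for Rgs9bp Cidea (0.980), Arl6ip5 (0.971) and Cotl1 (0.970). Hs3st2, a heparan sulphate sulphotransferase gene, stood at 4.92, 24.2, 28.1, 27.5, 3.27 and 0.569 FPKM from ZT1 to ZT23. Like Pdc it was high from ZT7 to ZT15 and lowest at ZT23. These correlations are over 6 libraries that share depth and composition, with the closest picked from many genes, and are a description.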

How the data were processed

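The deposited values were FPKM per RefSeq transcript for 14 libraries; no read counts were used here. Per the labels' protocols, polyadenylated RNA was copied with random primers, amplified with 16 cycles of PCR and sequenced as 101-base paired ends. TopHat 1.3.1, Cufflinks 1.2.0 and build rn4 appear in the submitters' processing notes. The strandedness of the libraries is not known here, and no member overlaps another gene. FPKM of 16932 transcripts were summed to 16472 gene IDs. Coordinates are printed as counted from 1. Only relative depth could be estimated.

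The log2(FPKM + 1) values of all genes reaching 1 FPKM in 2 or more libraries entered limma 3.58.1 (R 4.3.3, with trend), two-sided, with Benjamini-Hochberg adjustment over all genes tested and a threshold of 0.05. All 10 members passed this filter, and Gucy2f passed it without any pineal library, so it is left out of the tissue counts against the pineal gland. The pseudocount understates changes of low genes. The rhythm, late dark and dusk fits used the 12 time series libraries (6, 6 and 4 residual degrees of freedom; ZT15 had a mean of its own in the late dark fit), and the tissue fit all 14 (11). With 1 pool per tissue and time, p-values measure the spread between these pools together with departure from the model.

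The named genes were all members, the 4 genes of each pathway list with the smallest pineal rhythm p, and the 3 closest time courses. Further genes of the lists are named where a count or a partner called for it, chosen after their values were seen. The members, the lists and the contrast of dusk against dawn were chosen with earlier results of these data known. An item left out of the rod lists is not reported here. RefSeq promoters (GRCr8) were matched by gene ID. The code of the fits was run on simulated data with exact 24-h cosines and noise scaled down from the fitted spread. That run does not give the error rates of the fits on these libraries. Alternatives changed the pseudocount (0.1), the filter (none, or a mean of 5 FPKM), the scaling (quantile normalization or median ratio), the transcript used and the joint fit, left out each library, kept ZT7 and ZT19 alone, and set zeitgeber time as a block (for the rhythm difference, chosen after seeing the data).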

Additional observations from a re-analysis of the deposited data

Results flagged for a closer look

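Of the 20 sets of 6 libraries (10 genes in pineal gland and in retina), 1 held a library far from the others: the retina ZT7 library, with 1098 FPKM of Pdc, against 929 to 989 FPKM in the other retinas. Chance flags about 1 set in 20, and the retina ZT7 library was also highest in summed rod markers (7407 FPKM, against 5818 to 7154 in the other retinas) and in total FPKM (179277, against 152281 to 161184), whose part in this value was not tested.

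The 24-h rhythm differed between pineal gland and retina by a test of the difference in 4 genes, with a peak to trough of the difference of 3.05 for Pdc, 1.17 for Guca1a, 1.10 for Rcvrn and 1.08 for Slc24a2 (adjusted p = 0.0464, 0.041, 0.0338 and 0.0336 in limma). None of the 4 passed with zeitgeber time as a block.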

How the results depend on the processing

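Exact depth is unknown, each tissue and time has 1 pool, and the calls over time rest on 4 to 6 residual degrees of freedom. Of 1967 gene values recomputed under 24 settings, 1786 kept their side of the threshold and, in the contrasts, their sign. Of the others, 115 lost a call, 29 gained one and 37 changed sign, all of these 37 without a call. Fitted rhythm sizes have no sign, so direction was not checked for rhythms that did not pass or for the rhythm difference. The causes of these changes were not tested.

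For the 24-h rhythm in the pineal gland 5 genes passed. The count was 3 with no filter, 8 with median ratio scaling, 2 with the pineal gland fitted alone, and 4 to 6 with 1 library left out. In the retina it was 0, against 1 with quantile normalization, 3 with the retina fitted alone and 0 to 2 with 1 library left out. For a rhythm differing between the tissues it was 4, against 2 with a pseudocount of 0.1, 0 with no filter and 0 to 4 with 1 library left out. Rcvrn also lost this call with quantile normalization. Late dark against light in the pineal gland gave 4, against 1 with no filter, 0 with the tissue fitted alone and 0 to 5 with 1 library left out. Dusk against dawn in the pineal gland gave 4, against 2 with no filter, 2 with quantile normalization, 1 with the tissue fitted alone, 6 with median ratio scaling, 6 with a mean of at least 5 FPKM as the filter and 1 to 5 with 1 library left out. In the retina it gave 1, against 0 with a pseudocount of 0.1, 0 with no filter, 2 with the tissue fitted alone and 0 to 1 with 1 library left out. With Gucy2f counted, those for pineal gland against retina ran from 8 to 10, those for pineal gland against mixed tissue from 6 to 8, and that for retina against mixed tissue was 10 throughout.

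Values that changed sign by scaling were, with quantile normalization, those of dusk against dawn for Rgs9bp in the pineal gland (-0.0013) and Pdc in the retina (-0.22), and those of late dark against light in the retina for Gucy2f (0.0766), Pdc (0.0367), Rcvrn (0.0534) and Slc24a1 (-0.0171). With median ratio scaling they were dusk against dawn in the retina for Guca1b (-0.0235) and Pdc (-0.0194), late dark against light for pineal Grk1 (0.00601) and for retina Gucy2f (0.113), Pdc (0.0595) and Rcvrn (0.0965). Slc24a2 in pineal gland against mixed tissue was 0.145 with quantile normalization, 0.0187 with median ratio scaling and 0.0171 with ZT7 and ZT19 alone. Scaling moved the median of all genes in late dark against light in the retina by 0.11 (quantile) and 0.13 (median ratio).

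With 1 library left out, dusk against dawn ran from -0.28 to 0.57 for Rgs9bp in the pineal gland. Retina values ran from -0.13 to 0.17 for Guca1b and from -0.058 to 0.011 for Gucy2f. Late dark against light in the pineal gland ran from -0.39 to 0.14 for Grk1, -0.045 to 0.025 for Gucy2f, -0.088 to 0.12 for Rgs9 and -0.0041 to 0.37 for Slc24a1. In the retina it ran from -0.17 to 0.089 for Gucy2f, -0.27 to 0.082 for Rcvrn, -0.036 to 0.14 for Rgs9 and -0.073 to 0.11 for Slc24a1. Slc24a2 in pineal gland against mixed tissue ran from -0.15 to 0.14.

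With zeitgeber time as a replicate block, 9 genes differed between pineal gland and retina, as without it (Gucy2f counted). For a rhythm differing between the tissues the replicate block, added after seeing the data, gave 0, against 4 without it. Deviations of pineal and retina libraries of the same time correlated at 0.049 to 0.27, over 0.1 at 5 of 6 times and under it at ZT1, and 4 of 6 libraries correlated best with their own time. The labels tie no pineal pool to a retina pool, and since 1 time fell below 0.1 the fits without the block were kept as the main ones. Each deviation was taken from the mean of its tissue, so rhythms that both tissues share enter these correlations. The correlations cannot tell shared rhythms from paired pools and do not settle the choice between the fits.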

Other observations

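Set against mixed tissue in limma's test, the other parts of the cascade stood apart in the pineal gland. Genes that entered the test only through other tissues (Pde6b, Opn1mw, Pde6h and Hpcal4) are left out. Over all genes, with such genes kept, 19.8% were higher and 45% lower. All 6 cone genes that remained were higher, from 1.08 ± 0.26 for Arr3 (adjusted p = 0.00216) to 7.49 ± 0.15 for Gngt2 (adjusted p = 1.01e-15). The cone genes left out had lower pineal means: 0.0334 FPKM for Opn1mw, against 1.79 in mixed tissue, and 0.545 for Pde6h, against 1.58. Of 7 rod genes 2 were higher, Gngt1 (2.68 ± 0.39, adjusted p = 1.75e-05) and Cngb1, a channel subunit (2.50 ± 0.13, adjusted p = 1.48e-10), and 3 were lower. Of 7 other calcium sensors and calmodulins 6 were lower and 0 higher, among them Hpca, hippocalcin (-4.24 ± 0.18, adjusted p = 8.25e-12). These genes were named after their values were seen.

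In the retina, dusk against dawn was higher for Gucy2e, a cyclase that the GCAPs act on, by 0.83 ± 0.14 (adjusted p = 0.0403), while Guca1a gave 0.51 ± 0.11 (adjusted p = 0.0973).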
